A study of Homo sapiens with 4 samples.

Results

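The splicing factors and heterogeneous nuclear ribonucleoproteins (hnRNPs) on the array were taken as every probe whose annotated gene symbol begins with HNRNP, SRSF (earlier SFRS), SF3A, SF3B, SNRP, U2AF, PRPF or LSM, with SNRNP70 left out. This name rule gave 108 probes of 87 genes, among 24526 probes and 16922 gene symbols on the array. A549/146b cells are a puromycin-selected population of A549 cells, a human lung adenocarcinoma cell-line, that was transduced with the pLemiR lentiviral vector carrying human pre-miR-146b in the untranslated end of a red fluorescent protein gene driven by the cytomegalovirus promoter. A549/vec cells carry the same vector without the insert, so that both cell-lines share the vector, its fluorescent protein and the puromycin selection, and each was made as 1 transduced population. Total RNA was compared on 4 bead arrays, from cultures of both cell-lines grown side by side on 2 occasions. The question put to these probes was whether overexpression of the miR-146b microRNAs went with a different level of the transcripts that encode the splicing machinery.

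Introns are removed from pre-mRNA by the spliceosome, which is assembled on each intron from small nuclear ribonucleoproteins (snRNPs), each made of a small nuclear RNA and its proteins. SR proteins, named for their arginine- and serine-rich domain, bind exons and help to recruit the snRNPs, while hnRNPs coat the nascent transcript and often oppose them. Many transcripts of SR proteins and hnRNPs are themselves alternatively spliced into forms that are retained in the nucleus or degraded, so that probes placed on different parts of 1 gene can read different pools of RNA.

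The microRNAs that set the cell-lines apart are shown for reference, as RefSeq gives them on build GRCh38.p14, with the seed (bases 2 to 8) in capitals. They are the mature products of the MIR146B gene on the plus strand of chromosome 10.
hsa-miR-146b-5p: uGAGAACUgaauuccauaggcug
hsa-miR-146b-3p: gCCCUGUGgacucaguucuggu
The 5p sequence lies at chr10:102436520-102436542 and the 3p sequence at chr10:102436557-102436578. No value for either microRNA was used here, nor were the sequences of the array's probes.

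Signals are the authors' normalized intensities on a linear scale. Their median per array was 82.6 to 82.8. The mean signal before normalization ran from 394 in A549/vec replicate 1, the lowest, to 480.1 in A549/vec replicate 2, the highest. A probe was taken as expressed, and tested, where its detection p was under 0.01 on at least 1 array, which held for 10559 probes (43.1%). Precision is limited by the number of arrays, 2 for each cell-line. Of the markers of epithelial cells, 5 of 6 genes were expressed (KRT7, KRT8, KRT18, KRT19 and CDH1, but not EPCAM). The surfactant genes that define alveolar type II cells, the cells A549 is compared with, were not detected, and 1 of the 8 type II genes with a probe was expressed (ABCA3). None of the 4 endothelial markers was expressed, 1 of 8 fibroblast markers was (PDGFRA), as were 2 of 6 leukocyte markers (CD14 and CD68). Across expressed probes, A549/vec replicate 1 stood apart, with Pearson's r of 0.985 and 0.988 with the A549/146b arrays and 0.991 with its duplicate, against 0.992 to 0.995 among the other arrays. The summed signal of the 7 epithelial probes was 12743 and 11998 in A549/146b and 17833 and 12025 in A549/vec, so that A549/vec replicate 1 was the high array there too. The part of this array's profile in the results that follow was not tested beyond the values given with and without it.

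Most of the splicing factor and hnRNP probes taken here were detected in both cell-lines, and none of them passed the test between them. The study lists SNRNP70, which the rule leaves out, among the transcripts lower in A549/146b. Of the 108 probes, 86 (79.6%) were expressed, 83 of them on all 4 arrays, and they cover 72 of the 87 genes. In limma with the occasion as a block, none of the 86 was called higher or lower in A549/146b at an adjusted p under 0.05, with the Benjamini-Hochberg method over all 10559 probes, where 98 (0.928%) were called, 0.436% higher and 0.492% lower. At that rate fewer than 1 of 86 probes would be called. At an unadjusted p under 0.05, which limma gave for 8 of the 86 probes (9.30%), 2 were higher and 6 were lower in A549/146b, against 12.2% of all tested probes (6.21% higher and 6.03% lower). That order was turned in a fit with a variance trend, which gave 13 (15.1%) against 12.0% of all tested probes, and kept with normexp and quantile normalization, which gave 3 (3.49%) against 10.8%. The log2 fold changes of the 86, A549/146b minus A549/vec, ran from -0.43 for PRPF6 to 0.44 for SF3B6, with 39 above and 47 below 0. Their median was -0.01, beside -0.0024 over all tested probes.

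Each log2 fold change had a standard error of 0.14 from limma, set mostly by the pooled spread of the whole array (1025 prior degrees of freedom against 1 of the probe's own), and the smallest change called anywhere on the array was 0.50 on the log2 scale. The 95% interval lay within 1.5-fold in both directions for 81 of the 86 probes (94.2%), against 90.5% of all tested probes. The 5 probes whose interval reached 1.5-fold were those of SF3B6, HNRNPU, PRPF6, PRPF31 and HNRNPA3. A missed threshold does not show that any of the 86 was equal in both cell-lines.

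The signals of both A549/146b cultures lay on one side of both A549/vec cultures for 40 of the 86 probes (46.5%), 18 higher and 22 lower, against 44.0% of all tested probes (22.0% in each direction). The differences had the same sign on both occasions for 52 (60.5%), against 58.4%. Both shares were near those of the whole array.

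Differences between the cell-lines were larger than those between duplicate cultures on occasion 1, and about as large on occasion 2. The median size of the log2 difference between A549/146b and A549/vec over the 86 probes was 0.20 on occasion 1 and 0.11 on occasion 2. Between duplicates it was 0.10 for A549/146b and 0.13 for A549/vec. Over all tested probes the corresponding sizes were 0.19, 0.10, 0.11 and 0.14, so that the splicing probes varied as the array did. The SD of the 86 differences was 0.30 on occasion 1 and 0.14 on occasion 2, and 3 probes exceeded 1.5-fold on occasion 1 (SF3B6, PRPF6 and PRPF31) and none on occasion 2. For 58 of the 86 (67.4%) the difference was larger on occasion 1, against 69.9% of all tested probes. The array farthest from the other 3 was A549/vec replicate 1 for 33 probes (38.4%), against 43.6% of all tested probes.

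**Figure D1:**
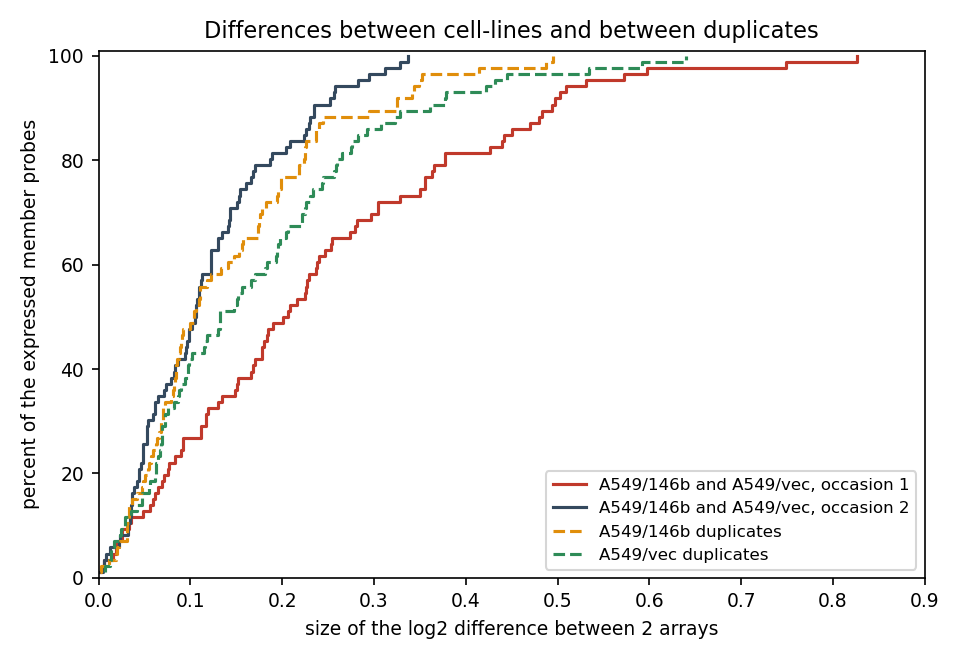
Cumulative share (percent, vertical axis) of the 86 expressed splicing factor and hnRNP probes by the size of their log2 difference between 2 arrays (horizontal axis), for A549/146b against A549/vec on each occasion and for the duplicates of each cell-line. The curve for occasion 1 lies to the right, with a median size of 0.20, and that for occasion 2 (0.11) lies near those of the duplicates (0.10 and 0.13).

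**Figure D2:**
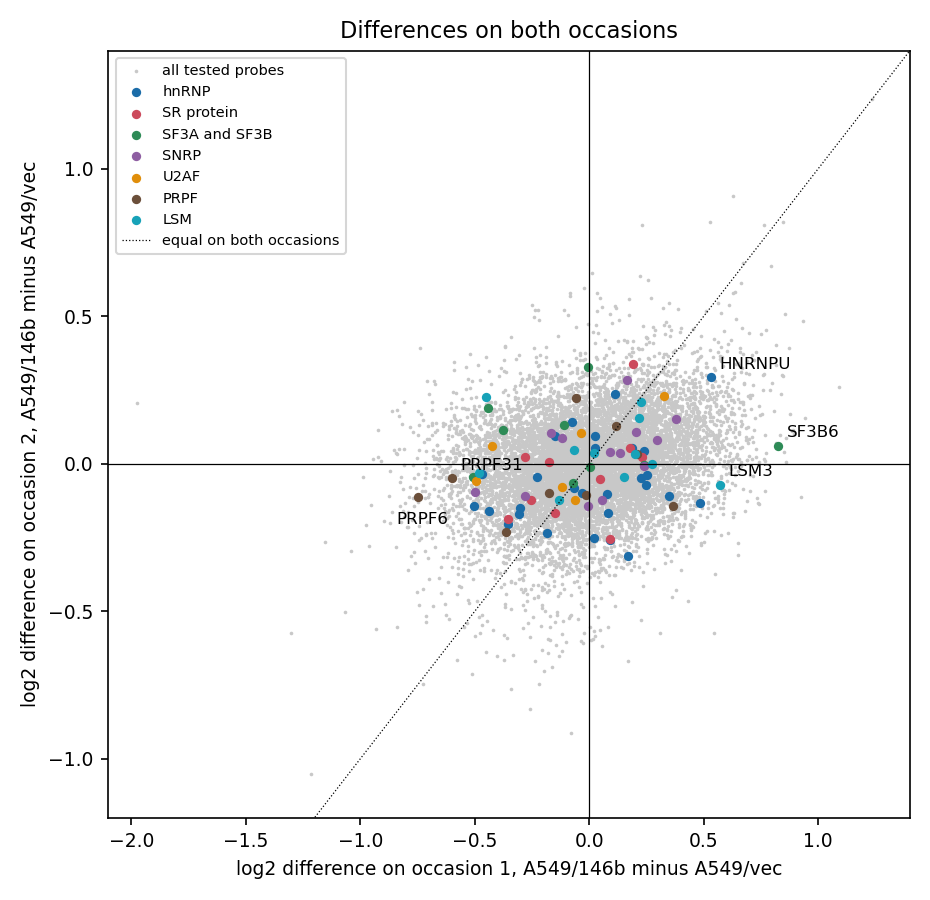
Log2 difference, A549/146b minus A549/vec, on occasion 1 (horizontal axis) and occasion 2 (vertical axis) for all 10559 tested probes (grey) and the 86 expressed splicing factor and hnRNP probes (coloured by subfamily). The coloured points spread more widely along the horizontal axis (SD 0.30) than along the vertical axis (SD 0.14), and none of them was called.

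Which A549/vec array was used decided whether any member passed. Each of the fits below kept a single A549/vec array, so its p-values do not measure the spread between A549/vec cultures. In fits without the block that left out A549/vec replicate 2, 5 of the 86 probes (5.81%) were called, those of PRPF6, PRPF31 and HNRNPA3 lower and of HNRNPU and SF3B6 higher, against 8.22% of all tested probes. Without A549/vec replicate 1 none was called, against 0.464% of all tested probes, with the smallest adjusted p of the members at 0.632 in limma. In that fit 1 of the 86 had an unadjusted p under 0.05 (1.16%), against 6.03% of all tested probes.

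**Figure D3:**
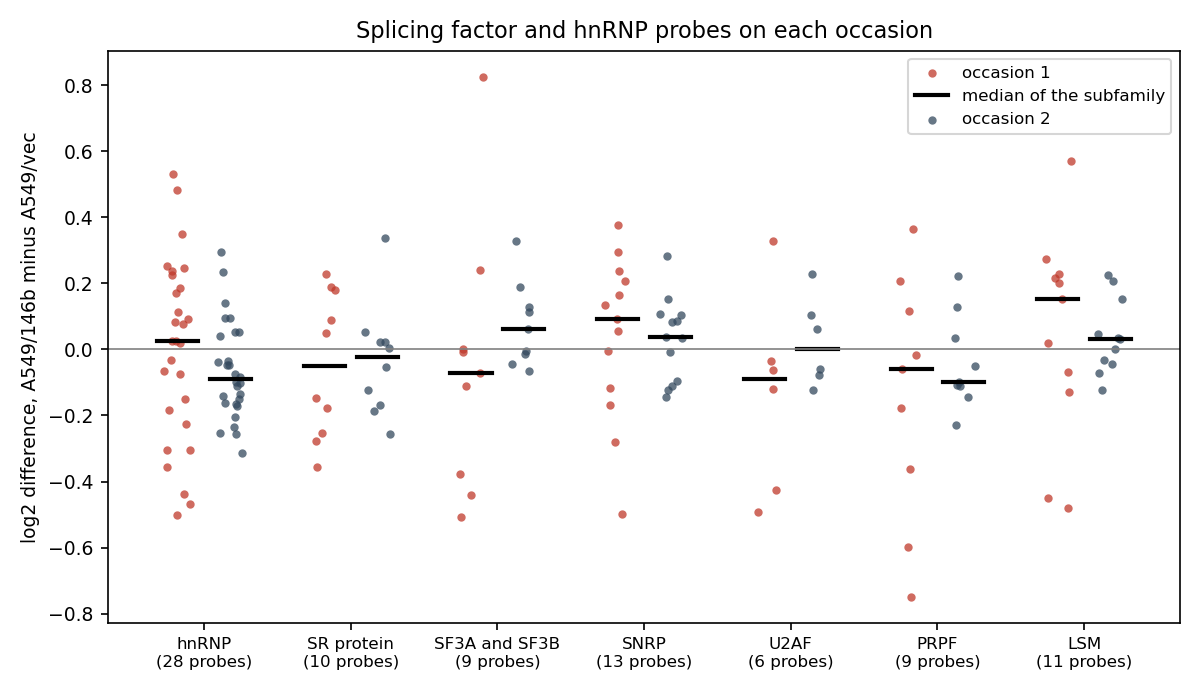
Log2 difference, A549/146b minus A549/vec (vertical axis), of each expressed probe on occasion 1 (red) and occasion 2 (blue) in the 7 subfamilies, with a black bar at each median. All medians lie between -0.10 and 0.15, and the single points reach from -0.75 to 0.83 on occasion 1 and from -0.31 to 0.34 on occasion 2.

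The branch point and the end of the intron are recognized by the U2 snRNP, with its SF3A and SF3B subunits, and by the U2AF dimer. Of 9 expressed SF3A and SF3B probes, 4 were above and 5 below 0, with a median of -0.07 on occasion 1 and 0.06 on occasion 2. SF3B6, the small subunit that contacts the branch point adenosine, had signals of 384 and 340.4 in A549/146b and 216.5 and 326 in A549/vec. Its 2 cell-lines did not overlap, but A549/vec replicate 1 alone was low and the other 3 arrays were close. The log2 fold change of SF3B6 was 0.44 (adjusted p = 0.107 from limma, standard error 0.14), with 0.83 on occasion 1 and 0.06 on occasion 2. It was 0.15 when A549/vec replicate 1 was left out and 0.74 when A549/vec replicate 2 was. Of the 86 probes it had the highest log2 fold change and also the widest gap between the occasions.

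SF3B1, the scaffold of the complex and a gene mutated in several blood cancers, lay near 0 on both occasions. Its probe ILMN_1706075 had 989 and 1033 in A549/146b and 1039 and 1080.2 in A549/vec, a log2 fold change of -0.07, and a second expressed probe had -0.01. SF3B2, its partner in the complex, had 1191 and 1328 in A549/146b and 1694 and 1369 in A549/vec, with A549/vec replicate 1 the high array. SF3B4, which bridges the complex to the pre-mRNA, had 1820.0 and 2089 in A549/146b and 2472 and 1833 in A549/vec. The SF3B4 cell-lines overlapped, and its log2 differences had opposite signs, -0.44 on occasion 1 and 0.19 on occasion 2. SF3A2 had -0.38 and 0.11 in the same order, SF3A3 -0.01 and 0.33, and SF3B5 0.24 and -0.0049. Only 3 of the 9 probes of this subfamily had the same sign on both occasions.

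U2AF2, the large subunit that binds the pyrimidine tract before the intron's end, was read by a pair of probes that lay on opposite sides of 0. Probe ILMN_1768930 had 5369 and 5487 in A549/146b and 4275 and 4680 in A549/vec, so that both A549/146b arrays were the higher ones, with a log2 fold change of 0.28 (95% interval -0.0016 to 0.56, adjusted p = 0.412 from limma). Probe ILMN_2385173 of the same annotated transcript had 181 and 195 in A549/146b and 255 and 203 in A549/vec, with A549/vec replicate 1 the high array. Both A549/146b arrays were the lower ones, with a log2 fold change of -0.28 (95% interval -0.56 to 0.0045, adjusted p = 0.420 from limma). The log2 differences on occasions 1 and 2 were -0.49 and -0.06 for this probe, and 0.33 and 0.23 for ILMN_1768930. The U2AF1 subunit, which contacts the AG dinucleotide at the intron's end, had 707 and 867 in A549/146b and 949.9 and 831 in A549/vec for probe ILMN_1772113, a log2 fold change of -0.18, and the cell-lines overlapped. Its second probe passed detection in neither A549/146b culture and in both A549/vec cultures, near the limit, so that it was tested only through A549/vec. That probe had a log2 fold change of -0.09 (95% interval -0.37 to 0.19, adjusted p = 0.858 from limma). U2AF1L4, a relative of U2AF1, had -0.10 and 0.04 from its 2 probes.

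The PRPF proteins belong mostly to the U4/U6.U5 tri-snRNP and to the complexes that activate it, and the most negative values of the whole set, those of PRPF6 and PRPF31, were among them. Their 9 expressed probes had a median of -0.06 on occasion 1 and -0.10 on occasion 2, with 5 below 0, and at an unadjusted p under 0.05 limma gave 3 of the 9, all lower, against 6.03% of all tested probes in that direction. PRPF6, which bridges the U5 snRNP to its partner snRNPs, had 179 and 178.5 in A549/146b and 300.5 and 193 in A549/vec. A549/vec replicate 1 stood high and the other arrays lay close together. The log2 fold change of PRPF6 was -0.43 (adjusted p = 0.127 from limma, standard error 0.14), with -0.75 on occasion 1 and -0.11 on occasion 2.

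PRPF31, a tri-snRNP protein mutated in inherited retinal degeneration, had 1630.2 and 1753 in A549/146b and 2467 and 1813 in A549/vec, with log2 differences of -0.60 and -0.05. The pattern was that of PRPF6, with a single high array. PRPF3, of the U4/U6 part of the tri-snRNP, had 755 and 684 in A549/146b and 971 and 803 in A549/vec, with -0.36 and -0.23. Here both A549/146b arrays were below both A549/vec arrays on either occasion. The adjusted p from limma was 0.319 for PRPF31 and 0.369 for PRPF3. Between the A549/vec duplicates, the PRPF probes had a median log2 difference of 0.26, replicate 1 minus replicate 2, against -0.01 over all tested probes, and A549/vec replicate 1 was the farthest array for 6 of the 9. Without that array PRPF6 had -0.11 and PRPF31 -0.10. PRPF8, the large protein at the spliceosome's centre, had log2 differences of 0.12 and 0.13, from 2631 and 2221 in A549/146b against 2426 and 2031 in A549/vec. Its cell-lines overlapped, since both cell-lines were brighter on occasion 1. PRPF38B and PRPF18, a factor of the second step of splicing, had log2 fold changes of 0.12 and 0.11.

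The SNRP genes encode the Sm proteins, which form a ring around the snRNAs, and proteins particular to the U1 and U2 snRNPs. Of their 13 expressed probes, 7 were above and 6 below 0, with a median of 0.09 on occasion 1 and 0.04 on occasion 2. The Sm proteins SNRPB, SNRPD1, SNRPD2, SNRPF and SNRPG had values above 0 and SNRPD3 below, apart from a second SNRPB probe. SNRPG had 9046 and 8446 in A549/146b and 7366 and 7981 in A549/vec, a log2 fold change of 0.19. SNRPD2, the brightest probe of the set, had 15219 and 16116 in A549/146b and 13193 and 14964 in A549/vec, a log2 fold change of 0.16. In both, all A549/146b arrays were above all A549/vec arrays, and the adjusted p from limma was 0.638 and 0.719. SNRPD3 had 206 and 244 in A549/146b and 251 and 263 in A549/vec, a log2 fold change of -0.20.

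Of the U1 proteins, SNRPA had 774 and 912 in A549/146b and 1092 and 974 in A549/vec, with log2 differences of -0.50 and -0.09 and a log2 fold change of -0.30 (adjusted p = 0.372 from limma). It was the 1 SNRP probe with an unadjusted p under 0.05, and its cell-lines did not overlap. SNRPC, its partner at the start of the intron, had 0.07. The U2 proteins SNRPA1 and SNRPB2 had -0.03 for SNRPA1 and, from a pair of probes of SNRPB2, 0.27 and -0.07. SNRPN, an imprinted relative of SNRPB, had 1563 and 1790 in A549/146b and 1695 and 1686 in A549/vec from its expressed probe, a log2 fold change of -0.02 with opposite signs on the 2 occasions.

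The Sm-like LSM proteins form rings of their own, 1 of which binds the end of the U6 snRNA in the nucleus and another, with LSM1, takes part in mRNA decay in the cytoplasm. Their 11 expressed probes had a median of 0.15 on occasion 1 and 0.03 on occasion 2, with 7 above 0 and none at an unadjusted p under 0.05 from limma, against 12.2% of all tested probes. LSM1 had 4036 and 3950 in A549/146b and 3447 and 3419 in A549/vec, the duplicates of each cell-line lying close together, with log2 differences of 0.23 and 0.21. LSM14A, a protein of cytoplasmic RNA granules, had 3216 and 3019 in A549/146b and 2768 and 2713 in A549/vec, with 0.22 and 0.15. In both, all A549/146b arrays were above all A549/vec arrays, and the adjusted p from limma was 0.568 for LSM1 and 0.649 for LSM14A.

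LSM3 had 2222 and 1585 in A549/146b and 1495 and 1665 in A549/vec. Here A549/146b replicate 1 stood high, with log2 differences of 0.57 and -0.07. LSM4 had 2036 and 2600.0 in A549/146b and 2781 and 2224 in A549/vec, with -0.45 and 0.23. LSM7 had 1169 and 1647 in A549/146b and 1630.3 and 1684 in A549/vec, with A549/146b replicate 1 the low array. A549/146b replicate 1 was the farthest array for 8 of the 11 LSM probes, against 26.3% of all tested probes. LSM10, which belongs to the U7 snRNP of histone mRNA processing, had -0.13 and -0.12 on the 2 occasions.

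**Figure D4:**
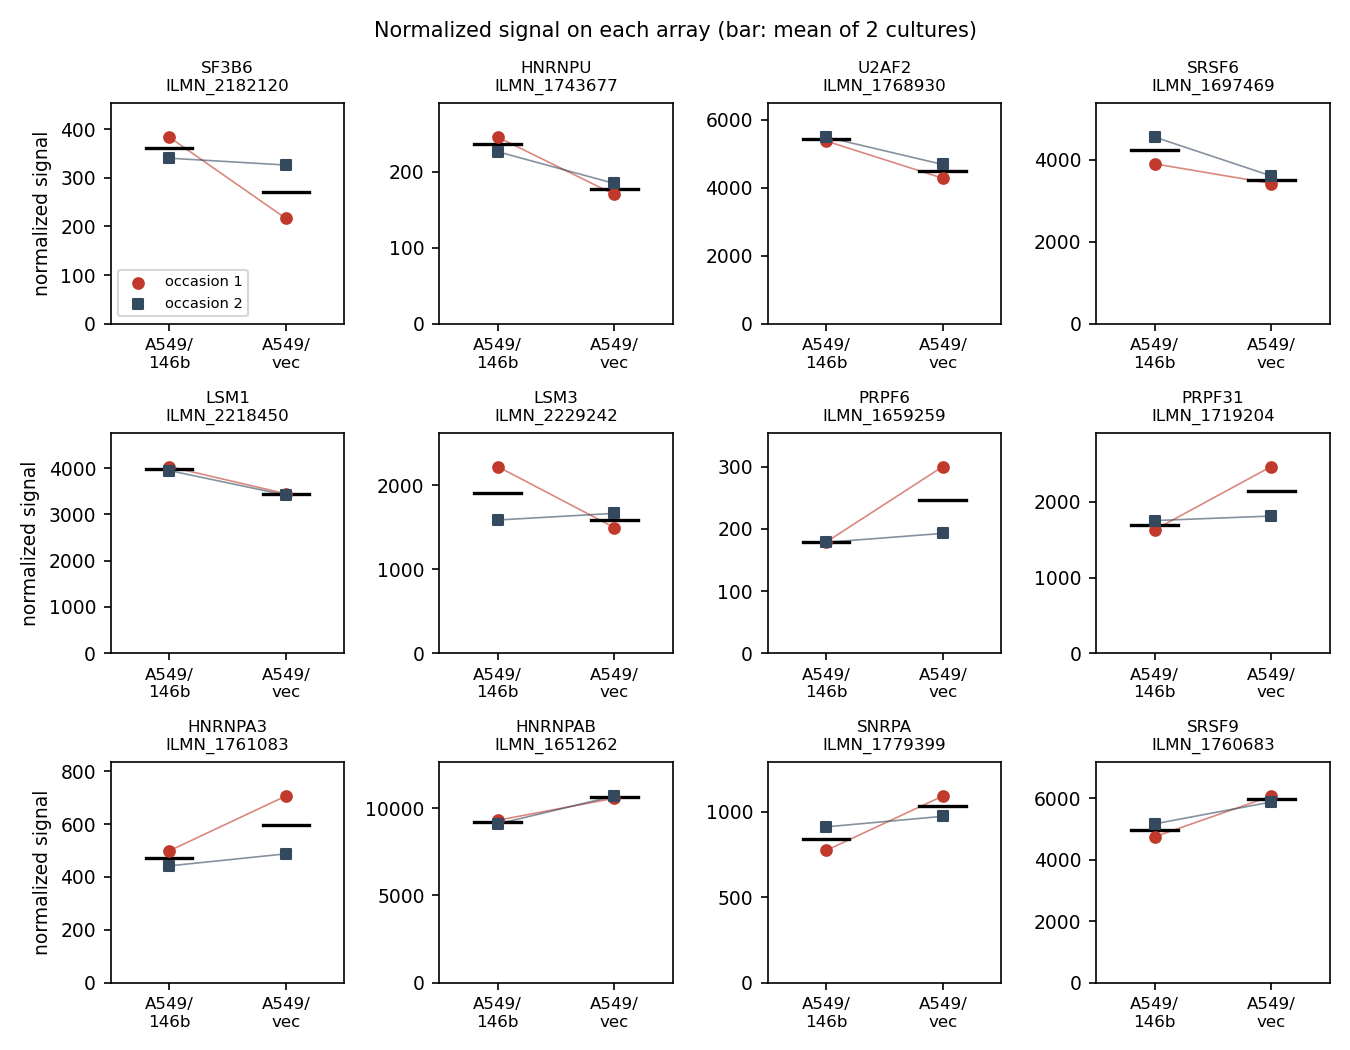
Normalized signal (vertical axis, linear from 0) of 12 probes on each array, with A549/146b left of A549/vec, circles for occasion 1, squares for occasion 2, lines joining the arrays of an occasion and bars at the means of 2 cultures. A549/vec replicate 1 alone is low for SF3B6 (216.5) and high for PRPF6 (300.5) and PRPF31 (2467), A549/146b replicate 1 alone is high for LSM3 (2222), and for HNRNPU, LSM1 and HNRNPAB the duplicates of a cell-line lie close together.

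The hnRNPs were the largest subfamily, with 28 expressed probes of 21 genes. On occasion 1, 12 of the 28 were below 0, with a median of 0.03, and on occasion 2 it was 20, with a median of -0.09, beside medians of 0.00 over all tested probes on both occasions. HNRNPU, a nuclear scaffold protein that binds RNA and chromatin, had 246 and 227 in A549/146b and 170.3 and 185 in A549/vec from probe ILMN_1743677. Both A549/146b arrays were above both A549/vec arrays, with log2 differences of 0.53 and 0.29 and a log2 fold change of 0.41 (adjusted p = 0.150 from limma, standard error 0.14). It had the smallest adjusted p of the 86 probes without A549/vec replicate 1, at 0.632, with a log2 fold change of 0.35 there. The other HNRNPU probe, ILMN_2370135, had 222 and 177 in A549/146b and 208 and 212 in A549/vec, a log2 fold change of -0.08 with overlapping cell-lines.

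HNRNPAB, an RNA-binding protein with a role in mRNA transport, was read by 3 probes, all with values below 0 on both occasions. The brightest of them, ILMN_1651262, had 9300.3 and 9089 in A549/146b and 10565 and 10692 in A549/vec, with log2 differences of -0.18 and -0.23. The others had -0.44 and -0.16 for ILMN_1696485 and -0.30 and -0.17 for ILMN_2335718. In all 3 the cell-lines did not overlap, as for 22.0% of all tested probes in that direction. The 3 probes read 1 gene on the same arrays and are not independent. Their adjusted p from limma ran from 0.364 to 0.585. Without A549/vec replicate 1, ILMN_1651262 had -0.22 and ILMN_1696485 -0.20.

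HNRNPA3, of the A/B family that coats the nascent RNA, had 498 and 442 in A549/146b and 706 and 487 in A549/vec. A549/vec replicate 1 was the high array, and the log2 fold change was -0.32 (adjusted p = 0.319 from limma), or -0.05 without that array. HNRNPA1, the best known member of the family, had -0.14 and -0.07 from its 2 probes. The probes annotated to its processed pseudogenes had -0.28 for HNRNPA1P33 and -0.12 for HNRNPA1P10, and since such copies are close to the parent gene in sequence, these probes may read HNRNPA1 transcripts as well and are uncertain. HNRNPA2B1 had 6832 and 5124 in A549/146b and 6071 and 6363 in A549/vec, which gave opposite signs on the 2 occasions. HNRNPC, which binds uridine tracts, had 0.17 and -0.04 from its 2 probes, and HNRNPUL1, a relative of HNRNPU, 0.17 and 0.03.

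Of the SR proteins, 10 probes of 9 genes were expressed, 3 above and 7 below 0, with a median of -0.05 on occasion 1 and -0.02 on occasion 2. At an unadjusted p under 0.05 limma gave none of the 10, against 12.2% of all tested probes, a count too small to tell from that share. SRSF6 had 3904 and 4559 in A549/146b and 3423 and 3609 in A549/vec, a log2 fold change of 0.26 (adjusted p = 0.450 from limma). SRSF9 had 4749 and 5171 in A549/146b and 6077 and 5883 in A549/vec, a log2 fold change of -0.27 (adjusted p = 0.432 from limma). For both of these splicing regulators the cell-lines did not overlap, in opposite directions. SRSF10, a splicing repressor in its dephosphorylated form, had -0.19, and SRSF7 and SRSF8 had 0.13 and 0.12. SRSF1, the founding member of the family, had 4190.4 and 4281 in A549/146b and 4052 and 4441 in A549/vec, a log2 fold change of -0.0022 with a 95% interval from -0.28 to 0.28. SRSF5 had -0.08 and -0.16 from its 2 probes, and the cell-lines did not overlap for the second of these values.

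For 13 genes more than 1 probe was expressed, and these show how far the values of 1 gene's probes lay apart. Among the 27 probes, the log2 fold changes of a gene lay on both sides of 0 for 6 of the 13 genes. The share of such genes over the whole array was not counted. Some of these values were small, as for U2AF1L4, with -0.10 and 0.04 beside a standard error of 0.14. The gap was 0.56 for U2AF2, 0.50 for HNRNPU, 0.34 for SNRPB2, 0.26 for SNRPB and 0.22 for HNRNPC, and 0.18 or less for the other 8. The SNRPB2 probes had 3940.4 and 3887 in A549/146b and 3034 and 3495 in A549/vec for ILMN_1690706, and 1176 and 1247 in A549/146b and 1179 and 1378 in A549/vec for ILMN_1771620. For SNRPB, ILMN_1774661 had a log2 fold change of 0.22 and ILMN_1799103 of -0.03. The array's annotation gives the same transcript for both probes of U2AF2, SNRPB2 and SNRPB, and different transcripts for those of HNRNPU and HNRNPC. The difference between 2 probes of a gene was not tested.

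**Figure D5:**
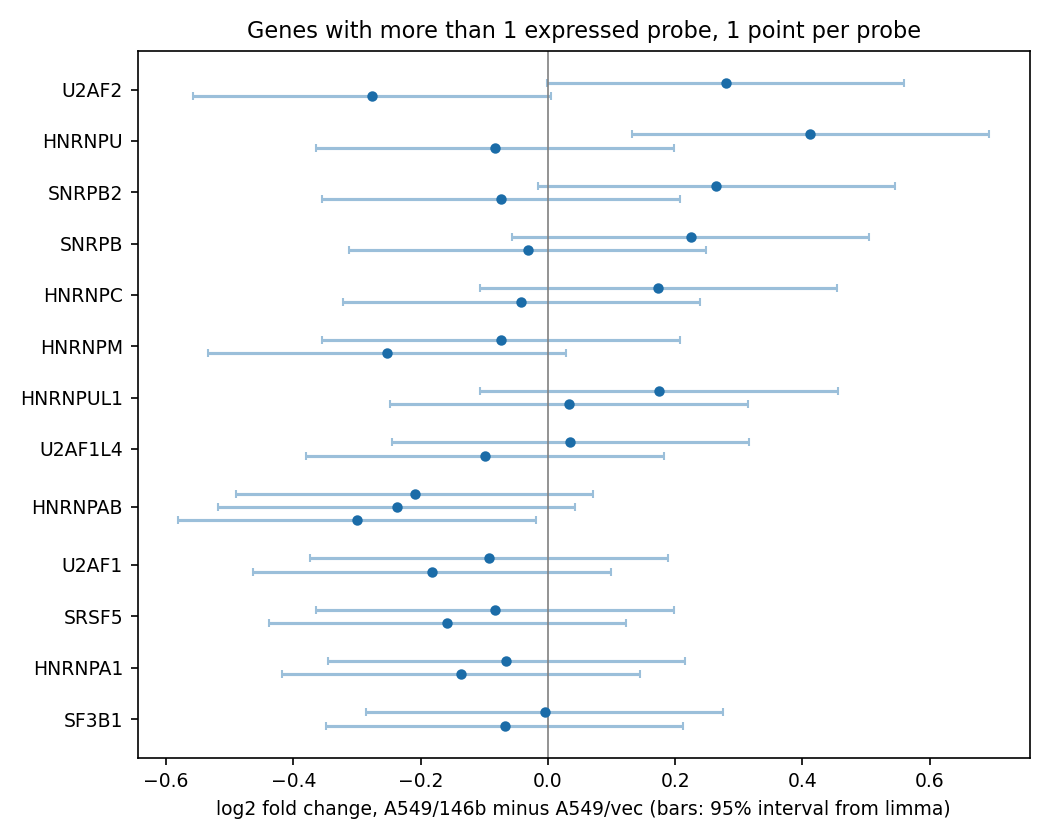
Log2 fold change, A549/146b minus A549/vec (horizontal axis), of each of the 27 expressed probes of the 13 genes with more than 1, with 95% intervals from limma. The U2AF2 probes lie at 0.28 and -0.28 and the HNRNPU probes at 0.41 and -0.08, while the 3 HNRNPAB probes lie together between -0.30 and -0.21.

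No expressed probe was found for 15 of the 87 genes. These were HNRNPA1L2, HNRNPA3P1, HNRNPCL1, HNRNPH1, LSM6, LSM11, LSMEM1, LSMEM2, PRPF39, PRPF40B, SF3A1, SNRPE, SRSF3, SRSF11 and SRSF12. SNRPE and SF3A1 encode constitutive subunits of the Sm ring and of SF3A, and SRSF3 and HNRNPH1 are broadly expressed regulators, so that for these a probe without signal is not evidence of a missing transcript. HNRNPH3, SF3B1, SNRPD2, SNRPN and SRSF10 had 1 probe that was not detected beside others that were. LSMEM1 and LSMEM2, which enter by the first letters of their names, encode membrane proteins unrelated to the Sm-like family. U2AF was the subfamily with all of its probes expressed, 6 of 6. The dimmest expressed probes were those of LSM14B, LSM5 and U2AF1, detected on 1, 2 and 2 arrays.

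Other genes of the pathway, listed by role, gave the same count, with SNRNP70 in none of the lists. None of the 99 expressed probes in 5 lists was called in either direction, against 0.928% of all tested probes, and 12 of the 99 had an unadjusted p under 0.05 from limma, against 12.2% of all tested probes. Among the kinases that phosphorylate SR proteins and the SR-related proteins, SRRM2, a large scaffold of nuclear speckles, had 1016 and 919.5 in A549/146b and 1512 and 1175 in A549/vec, a log2 fold change of -0.46 (adjusted p = 0.0806 from limma). PNN, another speckle protein, had 815 and 626 in A549/146b and 934 and 1017 in A549/vec, a log2 fold change of -0.45 (adjusted p = 0.0996 from limma). Both A549/146b arrays were below both A549/vec arrays for SRRM2 and for PNN, whose difference was the larger one on occasion 2 (-0.70, against -0.20 on occasion 1).

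Of the other hnRNP-like proteins, TIAL1 and the muscleblind protein MBNL1, both regulators of alternative exons, had log2 fold changes of 0.44 and 0.43 (adjusted p = 0.110 and 0.119 from limma), with 0.67 and 0.66 on occasion 1 and 0.21 for both on occasion 2. Among further core proteins of the spliceosome, ISY1 had -0.34 and the helicase DDX46 0.34. In the group that assembles the Sm ring, PRMT5, the methyltransferase that modifies Sm proteins, had -0.27 and CLNS1A, its chloride-channel-like partner, -0.21. UPF2, of nonsense-mediated decay, had 0.30 and -0.20 from its 2 probes. The medians of the 5 lists ran from -0.02 to 0.06. In the unblocked fit that left out A549/vec replicate 2, 6 of these probes were called, those of ISY1, SRRM2, MBNL1, TIAL1, MBNL2 and RALY, in a fit that called 8.22% of all tested probes.

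The genes of the expressed members were shorter than those of all tested probes, with a median length of 14.2 kb for 72 genes against 28.5 kb for 8287. Among genes with a promoter in the RefSeq table, 27304 had a length, with a median of 16.4 kb. Of the 72, 63 had a promoter in the RefSeq table of build GRCh38.p14 (250 bases before to 50 after the gene's start). The letters CCGGAAG, the core of sites for ETS factors, were found on either strand in 21 of the 63 (33.3%), against 20.4% of the promoters of all tested genes and 10.7% of all promoters in the table. The letters CCAAT were found in 29 (46.0%), against 37.6% and 35.7%, and TATAAA in 4 (6.35%), against 5.26% and 11.95%. A match describes the letters and is not a binding site. Across the 86 probes, Spearman's rho between gene length and the log2 fold change was 0.14, beside 0.24 across the 9655 tested probes with a length. On occasions 1 and 2 apart, rho was 0.07 and 0.16 across the 86, and 0.27 and 0.05 across the tested probes. Between the promoter's GC percent and the log2 fold change it was -0.27 across 76 member probes, beside -0.08 across 8128 tested probes. By occasion these were -0.23 and -0.1 for the members, and -0.11 and 0.0079 for the tested probes. Probes share arrays, and some share a gene, so that they are not independent.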

How the data were processed

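Total RNA of A549/146b and A549/vec cells, 2 cultures each, was measured on Illumina HumanRef-8 arrays. Per the study's methods and the submitters' processing notes, the authors read the arrays in GenomeStudio and used lumi 1.14 in R 2.11.1 for background correction, variance stabilization and robust spline normalization. The deposited values are signal intensities before normalization, normalized intensities, which are on a linear scale, and detection p-values. Log2 of the normalized intensities was tested here.

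Probes whose detection p was under 0.01 on 1 array or more were fitted together in limma 3.58.1 (R 4.3.3), A549/146b minus A549/vec, blocked on occasion, and p-values took the Benjamini-Hochberg adjustment over all 10559. The study describes parallel culture of the cell-lines on each occasion, and arrays of 1 culture number were taken as a pair. Their deviations from the cell-line means had a correlation of -0.05 across probes. Cultures of 1 transduced population per cell-line were the replicates. The p-values rest on how far the cell-line difference varied between occasions, pooled mostly over all tested probes. They do not measure the spread between separately transduced populations.

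The members and lists were chosen with earlier results of these data known. The probes described in full were, in each subfamily, the 3 highest and 3 lowest log2 fold changes, and over all members those with the highest and lowest signal, the widest gaps between probes of a gene or between occasions, and in each pathway list the 2 smallest p-values. Other members were added after their values were seen. The fit was tested on simulated data. Alternatives were another normalization (normexp with quantile, quantile, or median scaling), another filter on dim probes, no block, another variance moderation, each array left out and each occasion alone.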

Additional observations from a re-analysis of the deposited data

How the results depend on the processing

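No member was called under any alternative except 1. When each array was left out in turn, without the block, the members called ranged from 0 to 5 and the pathway list probes called from 0 to 6, the higher counts without A549/vec replicate 2, where 868 of all tested probes were called. The fit with no replicate block called 12 of all probes in place of 98, and 0 members, so that the block changed no call of a member. Calls over all probes were 21 with normexp and quantile normalization, 77 with quantile normalization, 7 with median scaling, 33 among probes detected on all 4 arrays, 72 with a variance trend, and 0 (1984 at an unadjusted p under 0.05 in limma) with all 24526 probes tested. Members at an unadjusted p under 0.05 in limma, 8 as reported, numbered 3 with normexp and quantile normalization, 6 with quantile normalization, 3 with median scaling, 15 of 108 (13.9%, against 8.09% of all) with all probes tested, 13 with a variance trend, 10 without the block and 1 to 20 with 1 array left out. Median scaling gave medians of 0.0292 for the members, 0.113 for SNRP and -0.0365 for the SR proteins, and a median of 0.01 over all probes. Testing all probes gave -0.0133 for the SR proteins. Occasion 1 alone gave 0.152 for LSM and -0.0498 for the SR proteins, and occasion 2 alone -0.0983 for PRPF, -0.0237 for the SR proteins and 0.001 for U2AF. With 1 array left out, the medians ranged from 0.0268 to 0.115 for SNRP, from -0.0767 to -0.0381 for the SR proteins and from -0.0982 to -0.0604 for PRPF. The other 116 values of medians and counts moved less than the SD of both occasions' medians, or stayed within 1.5 times. That SD is wide where the occasions disagree, so it cannot show that a median was stable. The hnRNP median was 0.03 on occasion 1 and -0.09 on occasion 2, and both values fell within it.

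Of the single probes, 16 values changed sign and 515 kept their direction and side of the threshold. With median scaling SNRPB (ILMN_1799103) had 0.00853. The others changed sign when 1 array was left out, over which the log2 fold change ranged from -0.12 to 0.0365 for HNRNPC (ILMN_1695588), from -0.245 to 0.0796 for HNRNPU (ILMN_2370135), from -0.0549 to 0.163 for LSM14B, from -0.288 to 0.0643 for LSM4, from -0.0298 to 0.253 for PRPF18 and from -0.00529 to 0.252 for PRPF8. It ranged from -0.343 to 0.079 for SF3A2, from -0.0133 to 0.336 for SF3A3, from -0.342 to 0.0894 for SF3B4, from -0.145 to 0.0813 for SNRPB (ILMN_1799103), from -0.186 to 0.0387 for SNRPB2 (ILMN_1771620) and from -0.0315 to 0.102 for U2AF1L4 (ILMN_1779177). The causes were not tested. A fit without 1 array leaves a lone array that is assumed to vary like the other cell-line. With 4 arrays, signal near background limits LSM14B, LSM5 and the second U2AF1 probe.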
